A study of Mus musculus with 20 samples.

Results

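Transcript levels of 10 mice were compared after the soleus and gastrocnemius values of each animal had been averaged, so that every mouse gave 1 value per gene. One condition was 24 h of hind-limb suspension (HLS), with the tail suspended at a head-down tilt of 45°, in 5 male ICR mice aged 6 months. The other 5 mice, also male ICR animals of 6 months, were freely ambulating and are called Control. All 10 animals were kept in individual cages, and none carried a transgene or received a drug according to the labels. RNA of each muscle was hybridised to its own one-colour Agilent array, which gave 20 arrays, all of which entered the 10 animal means. Replicates were separate animals, and soleus and gastrocnemius with the same condition and number came from the same animal per the labels. The deviations of the 2 muscles of an animal from their group means correlated at -0.344 to 0.17 over genes, with a median of 0.0355. Of 25291 genes tested, 1968 (7.78%) passed in the averaged comparison, and 525 of them (2.08% of genes tested) passed there and in neither muscle alone. A further 517 genes (2.04%) passed in both muscles on their own and are called the common response.

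The soleus is a postural muscle that is active whenever a mouse stands, and the gastrocnemius works mainly in movement. Suspension removes ground contact from both, and the loss of load lowers protein synthesis and raises protein breakdown through the ubiquitin and autophagy pathways. FoxO transcription factors and the glucocorticoid receptor switch on atrophy genes such as the ubiquitin ligases Fbxo32 (atrogin-1) and Trim63 (MuRF1), whereas stretch of the Z-disc and the cytoskeleton keeps a separate set of load-responsive genes active. A difference that is modest but alike in both muscles can be missed in each muscle and be resolved when the noise of 2 arrays per animal is averaged, which is the question this comparison addresses.

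A level here is a log2 intensity relative to the 75th percentile of its array, and a change is HLS minus Control on that scale, given ± SE. Adjusted p is from limma with the Benjamini-Hochberg method over all genes, 2-sided, with a threshold of 0.05. Levels of different genes are not compared, since each probe has its own brightness. In bulk RNA, fewer cells of a type and less RNA per cell cannot be told apart. On each array 80.7% to 93.1% of spots were well above background, and precision is limited by how many arrays there are. Scaling to spike-in RNA instead of the percentile moved the median averaged change of all genes to 0.30, against 0.04, so every change is relative to the percentile. On the log2 scale relative to the percentile, spike-ins were at 2.45 to 2.65 on gastrocnemius Control arrays, against 1.69 to 2.01 on gastrocnemius HLS arrays. In soleus they were at 1.43 to 1.53 on Control arrays, against 1.55 to 2.01 on HLS arrays. Spike-in scaling thus shifts the 2 muscles in opposite directions, which the averaged value does not show.

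The array labelled soleus HLS 1 stood apart from the other soleus arrays in fibre type genes. Tnni1, the slow troponin I, was at 4.15 on it, against 6.72 to 7.35 on the other soleus HLS arrays and 2.56 to 3.68 on gastrocnemius HLS arrays. Actn3, the α-actinin of fast fibres, was at 7.91 on it, against 2.14 to 5.00 on the other soleus HLS arrays and 7.87 to 8.37 on gastrocnemius HLS arrays. The other 19 arrays matched the tissue in their labels by these genes. Without HLS 1, 729 genes were higher and 1126 lower in the averaged comparison, against 770 and 1198 with it, and 544 genes passed only there, of which 242 were among the 525. The common response then held 451 genes, of which 405 were among the 517.

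Slides and scan days were not balanced over the groups. Slide 5, with 3 HLS and 1 Control soleus arrays, and slide 2, with 1 HLS and 3 Control gastrocnemius arrays, were the only slides that held both conditions of a muscle. Soleus HLS 1, the array that stood apart in fibre type genes, was 1 of the 3 HLS arrays on slide 5. The HLS array on slide 2 was gastrocnemius HLS 1, so the within-slide changes of both muscles include animal HLS 1. Changes within these slides, without a test, are given for some of the genes below. They are not given for every called change that slide as a block moved, such as those of Cln6, Diaph1 and Srm. With slide as a block 141 genes passed the averaged comparison, and 786 passed when scan day was the block. The fit with slide had 12 residual degrees of freedom, against 16 without it. All 517 genes of the common response kept their sign in both blocked fits, with a median size of change of 0.692 with slide and 0.755 with scan day as a block, against 0.775 without. Genes called in both muscles were then 1 up and 1 down with slide as a block, and 5 up and 4 down when scan day was the block. Of the 525 genes that passed only after averaging, 520 kept their sign with slide as a block, and 525 did when scan day was the block. Both sets were chosen by their changes on these same arrays, which favours kept signs and sizes, so nothing is read from them. In limma 0 of the 525 passed with slide as a block, where 162 had an unadjusted p under 0.05, and 31 passed when scan day was the block.

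In the averaged comparison 770 genes rose (3.04% of genes tested) and 1198 fell (4.74%). Of these 1968 genes 179 changed at least 2-fold, 71 of them upward and 108 downward. The sign of the change was the same in both muscles for 1956 of the 1968, against 15964 of all 25291 genes. HLS and Control animal means did not overlap for 1684 of the 1968, against 2319 of all genes (9.17%). Passing the averaged test itself favours equal signs and separate means, so nothing is read from these counts. The soleus alone gave 1504 genes (5.95%), with 2.42% of genes tested up and 3.53% down. The gastrocnemius alone gave 801 (3.17%), with 1.17% up and 2% down. The 517 genes shared by both muscles were 34.4% of the soleus genes and 64.5% of the gastrocnemius genes, all 517 moved in 1 direction in both, and all 517 passed after averaging. The muscles come from the same animals, so this overlap is not between independent experiments. Averaging also kept 732 genes that had passed in soleus alone and 194 that had passed in gastrocnemius alone, while 255 soleus genes and 90 gastrocnemius genes no longer passed. For the difference between the muscles in their response, limma called 0 genes at adjusted p 0.05, where the lowest adjusted p was 0.0503 and 1458 genes (5.76%) had an unadjusted p under 0.05.

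**Figure D1:**
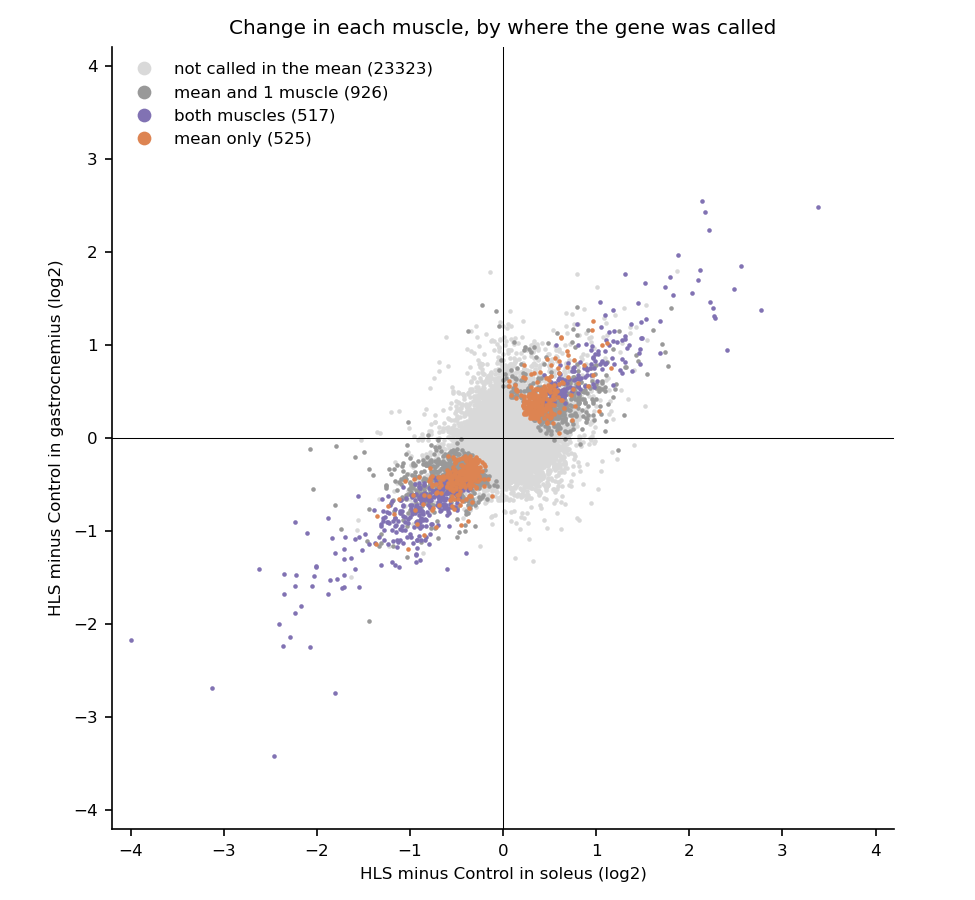
The change in soleus (x axis, log2 HLS minus Control) is plotted against the change in gastrocnemius (y axis, same unit), 1 point per gene, coloured by the comparison in which the gene passed. The 517 genes of the common response extend farthest from the origin along the diagonal, and the 525 genes resolved by averaging lie between them and the genes that did not pass.

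The common response held 158 genes that rose (0.625% of genes tested) and 359 that fell (1.42%). Its median size of change was 0.775 (range 0.327 to 3.08), and 146 of the 517 genes changed at least 2-fold. Animal means of HLS and Control did not overlap for 155 of the 158 genes that rose and for 355 of the 359 that fell. Passing in both muscles favours such separation, so nothing is read from it. The change was larger in soleus for 358 of the 517 genes (69.2%), against 55% of all genes. An unadjusted p under 0.05 for the difference between muscles was seen for 49 of the 517 (9.48%), against 5.76% of all genes. Each of 514 of the 517 genes kept its averaged call whichever animal was left out, and 268 kept their calls in both muscles.

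Chac1, Ddit4 and Fbxo32 had the largest rises of the common response. Chac1, which encodes an enzyme that degrades glutathione and is a target of ATF4, stood at 5.08, 4.02, 5.02, 4.33 and 4.65 in the HLS animals, against 2.74, -0.09, 1.94, 2.03 and 1.83 in the Control animals. All HLS animals lay above all Control animals, and the change was 2.93 ± 0.42 (7.63-fold, limma adjusted p = 0.0013, n = 5 each). Within slide 5 the soleus change of Chac1 was 2.91, and within slide 2 its gastrocnemius change was 2.83. Fbxo32 stood at 5.06, 4.60, 4.41, 4.56 and 4.94 in HLS animals, against 2.70, 1.83, 2.42, 2.42 and 2.69 in Control animals. The groups were far apart, with a change of 2.30 ± 0.17 (4.93-fold, limma adjusted p = 2.4e-05), which was 1.69 within slide 5 and 2.67 within slide 2. Trim63 passed after averaging with a rise of 1.07 ± 0.23 (limma adjusted p = 0.013) and in soleus alone, not in gastrocnemius (change 0.96, adjusted p = 0.12).

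Ddit4, the mTORC1 inhibitor REDD1, stood at 5.26, 4.41, 4.82, 5.27 and 6.74 in HLS animals, against 3.21, 1.73, 3.49, 3.04 and 3.30 in Control animals. The groups did not overlap, HLS 5 was the highest and Control 2 the lowest, and the change was 2.35 ± 0.41 (limma adjusted p = 0.0046). It was smaller within slide 5 (0.54) than within slide 2 (2.24), and when scan day was a block it was 2.00 with an adjusted p of 0.055. Its paralog Ddit4l rose by 1.84 ± 0.20 (limma adjusted p = 1.9e-04). Gadd45a, a growth arrest gene known to rise in atrophying muscle, stood at 3.46, 3.44, 3.46, 2.62 and 4.05 in HLS animals, against 1.00, 1.25, 1.41, 1.32 and 1.71 in Control animals. Every HLS animal was above every Control animal, with a change of 2.07 ± 0.21 (limma adjusted p = 1.7e-04), 2.25 within slide 5 and 1.29 within slide 2. Depp1, a FoxO target, rose by 2.20 ± 0.41 (limma adjusted p = 0.0061), and Eda2r, a p53-inducible receptor of the tumour necrosis factor family, by 1.79 ± 0.22 (adjusted p = 5.0e-04).

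Slc43a1, a transporter of large neutral amino acids, stood at 1.24, 0.82, 0.59, 0.56 and 1.17 in HLS animals, against -1.20, -1.31, -1.24, -1.00 and -1.06 in Control animals. The Control animals lay within a narrow band below all HLS animals, and the change was 2.04 ± 0.14 (4.11-fold, limma adjusted p = 8.6e-06), with 1.92 within slide 5 and 2.04 within slide 2. Fkbp5, a co-chaperone of the glucocorticoid receptor and one of its targets, stood at 0.48, 0.95, 1.59, 2.23 and 2.25 in HLS animals, against 0.05, -0.48, -0.23, -0.22 and -0.42 in Control animals. The groups did not overlap although the HLS animals were spread over a wide range, and the change was 1.76 ± 0.30 (limma adjusted p = 0.0037). It was 1.44 within slide 5, 0.82 within slide 2 and 1.04 with scan day as a block. Hdac4, a histone deacetylase induced by denervation, stood at 2.99, 2.73, 2.83, 2.34 and 2.99 in HLS animals, against 0.93, 0.81, 1.00, 1.01 and 1.19 in Control animals. These groups were also separate, with a change of 1.78 ± 0.12 (limma adjusted p = 1.0e-05).

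Pfkfb3, which makes the fructose 2,6-bisphosphate that drives glycolysis, rose by 1.89 ± 0.33 (limma adjusted p = 0.0046) and was highest in HLS 1. Inmt, an N-methyltransferase, rose by 1.95 ± 0.36 (adjusted p = 0.0055). Gadd45g rose by 1.59 ± 0.25, Cdkn1a, the cell cycle inhibitor p21, by 1.54 ± 0.30, and Klf10, a TGF-β-inducible transcription factor, by 1.17 ± 0.13, all with an adjusted p under the threshold. Slc10a6, a transporter of sulphated steroids, rose by 1.68 ± 0.22 and was well above background on 10 of 10 HLS and 8 of 10 Control arrays.

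Nmrk2, Csrp3 and Tnfrsf12a had the largest falls of the common response. Nmrk2, a kinase of nicotinamide riboside, stood at 2.64, 1.46, 1.16, 0.82 and 1.09 in HLS animals, against 4.30, 4.54, 4.30, 4.90 and 4.54 in Control animals. All HLS animals were below all Control animals, with HLS 1 nearest to them, and the change was -3.08 ± 0.28 (8.47-fold lower, limma adjusted p = 6.9e-05), -3.55 within slide 5 and -1.68 within slide 2. Csrp3, the muscle LIM protein of the Z-disc, stood at 1.79, 2.62, 3.45, 3.14 and 2.71 in HLS animals, against 5.39, 5.44, 5.89, 5.87 and 5.84 in Control animals. The groups were separate, with a change of -2.94 ± 0.25 (7.68-fold lower, limma adjusted p = 5.2e-05), -2.66 within slide 5 and -3.68 within slide 2. Tnfrsf12a, the receptor for the cytokine TWEAK, stood at 1.01, 0.25, 0.14, 0.07 and 0.42 in HLS animals, against 2.99, 3.83, 3.61, 3.28 and 2.69 in Control animals. It too had no overlap between groups, with a change of -2.90 ± 0.22 (limma adjusted p = 2.8e-05), -1.97 within slide 5 and -1.99 within slide 2.

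Ankrd1, an ankyrin repeat protein induced by stretch, stood at -1.46, -1.60, -2.17, -2.15 and -1.66 in HLS animals, against 0.65, -0.03, 0.14, 0.87 and 0.80 in Control animals. The groups did not overlap, and the change was -2.30 ± 0.20 (limma adjusted p = 5.4e-05). Its relative Ankrd2 fell by 2.28 ± 0.15 (adjusted p = 8.6e-06), and Xirp1, an actin-binding protein of the muscle cytoskeleton, by 2.21 ± 0.20 (adjusted p = 5.9e-05). Lmcd1, a LIM domain cofactor linked to calcineurin signalling, stood at 1.35, 1.87, 2.30, 2.24 and 1.59 in HLS animals, against 3.91, 3.95, 4.26, 3.96 and 4.05 in Control animals. Rcan1, a calcineurin inhibitor that calcineurin itself induces, stood at 1.28, 0.97, 0.89, 1.20 and 0.58 in HLS animals, against 2.95, 3.45, 3.17, 2.75 and 2.50 in Control animals. Both genes were lower in every HLS animal, Lmcd1 by -2.16 ± 0.17 (adjusted p = 3.0e-05) and Rcan1 by -1.98 ± 0.18 (adjusted p = 6.3e-05).

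Tnfrsf11b, the decoy receptor osteoprotegerin, fell by 2.21 ± 0.15 (limma adjusted p = 8.6e-06), but it was well above background on only 3 of 10 HLS and 8 of 10 Control arrays. Timp1, an inhibitor of metalloproteinases, fell by 2.06 ± 0.19 (adjusted p = 8.0e-05), and Perm1, a muscle regulator of oxidative genes, by 1.91 ± 0.13 (adjusted p = 8.6e-06). Irs1, the adaptor of insulin and IGF-1 receptors, fell by 1.76 ± 0.20 (adjusted p = 2.9e-04), with -1.19 within slide 5 and -0.78 within slide 2. Ccnd1, cyclin D1, fell by 1.77 ± 0.17 (adjusted p = 1.1e-04), and Vegfa, the vascular growth factor, by 1.35 ± 0.17 (adjusted p = 4.6e-04).

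**Figure D2:**
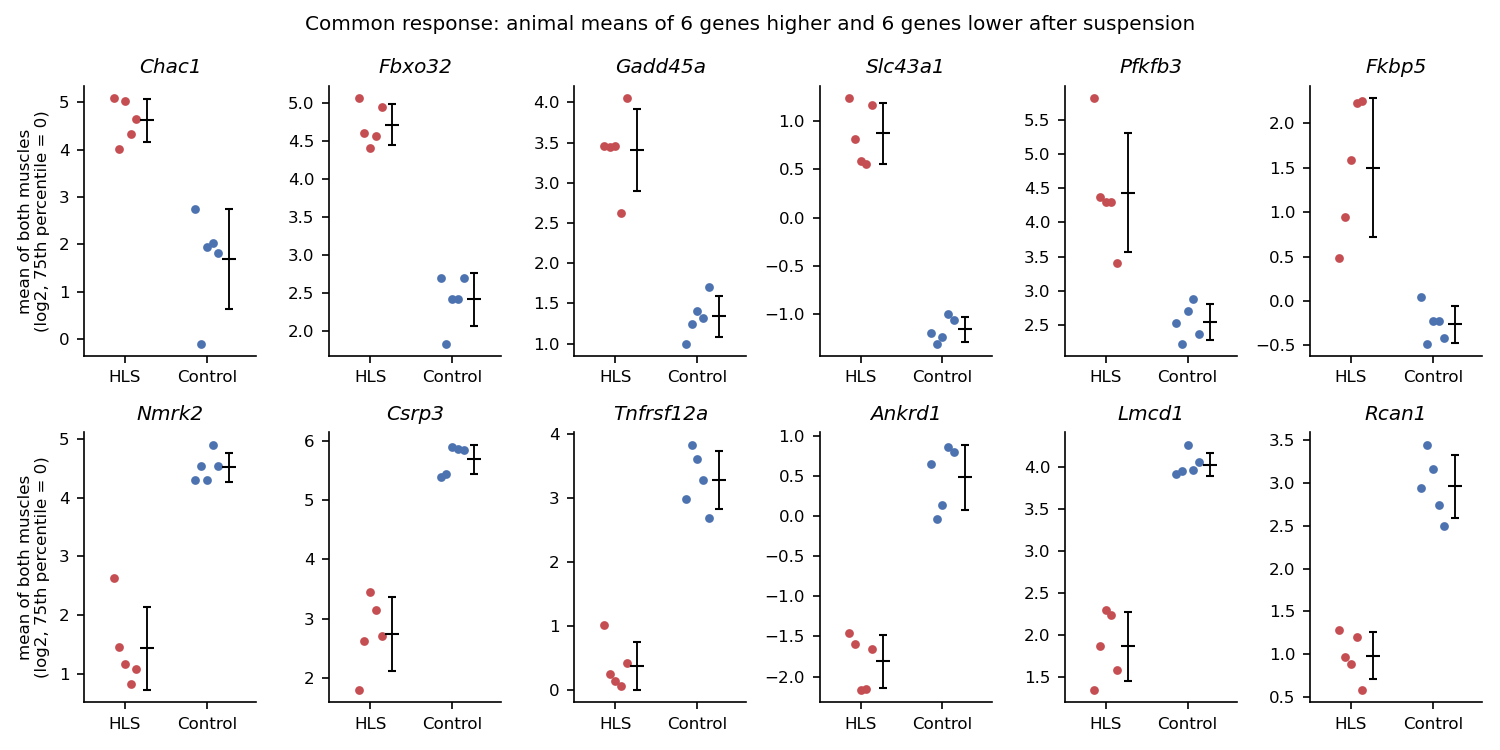
Each panel shows the level (log2 relative to the array's 75th percentile, mean of soleus and gastrocnemius) of 1 gene of the common response, with 5 HLS animals on the left, 5 Control animals on the right and bars for mean ± SD. In the upper row, from Chac1 to Fkbp5, all HLS animals lie above all Control animals, and in the lower row, from Nmrk2 to Rcan1, all lie below.

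Promoter windows are printed for 4 genes whose change was described or is described next and whose window holds a textbook element: Chac1, Atf3 and Hspa1a of the common response, and Per1, which passed only after averaging. They are the 250 bases before the transcription start on the gene's strand, from RefSeq on GRCm38.p6, with the match in capitals and the rest in lower case. The element in Chac1 and Atf3 is the C/EBP-ATF element TGATGCAA, which lies on the opposite strand in both, that in Hspa1a is the heat shock half-site pair GAANNTTC, and that in Per1 is the E-box CACGTG.
Chac1, chr2:119350992-119351241, plus strand: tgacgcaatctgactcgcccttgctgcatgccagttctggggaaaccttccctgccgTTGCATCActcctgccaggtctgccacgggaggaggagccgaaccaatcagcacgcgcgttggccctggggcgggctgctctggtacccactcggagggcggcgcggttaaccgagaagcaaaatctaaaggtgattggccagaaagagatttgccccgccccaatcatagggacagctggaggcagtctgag
Atf3, chr1:191183334-191183583, minus strand: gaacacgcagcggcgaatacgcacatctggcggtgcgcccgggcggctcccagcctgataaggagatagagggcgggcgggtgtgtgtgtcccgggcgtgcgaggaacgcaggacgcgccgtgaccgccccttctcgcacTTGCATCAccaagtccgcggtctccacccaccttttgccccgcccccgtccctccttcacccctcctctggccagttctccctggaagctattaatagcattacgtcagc
Hspa1a, chr17:34972157-34972406, minus strand: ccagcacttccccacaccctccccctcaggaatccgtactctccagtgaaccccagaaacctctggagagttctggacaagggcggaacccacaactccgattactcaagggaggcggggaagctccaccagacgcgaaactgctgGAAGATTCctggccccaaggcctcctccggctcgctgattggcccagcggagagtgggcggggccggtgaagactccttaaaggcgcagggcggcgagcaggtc
Per1, chr11:69098699-69098948, plus strand: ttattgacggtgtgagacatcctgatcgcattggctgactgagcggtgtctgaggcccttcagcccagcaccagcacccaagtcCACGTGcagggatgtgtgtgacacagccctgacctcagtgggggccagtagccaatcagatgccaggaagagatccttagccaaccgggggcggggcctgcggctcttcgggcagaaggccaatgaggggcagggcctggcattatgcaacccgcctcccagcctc
The matches begin at -193 in Chac1, -110 in Atf3, -104 in Hspa1a and -166 in Per1, counted from the start. For Per1, 2 windows are annotated, and the one printed is the first that holds the E-box. Chac1 and Atf3 hold the same element, but Chac1 rose while Atf3, a stress-induced transcription factor, fell by 1.64 ± 0.18 (limma adjusted p = 2.3e-04).

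Over whole groups of genes, 6 motifs were searched on both strands of these windows, which were at hand for 14785 of the 25291 genes. The C/EBP-ATF element was in 0.791% of all windows, in 1.77% of those of common genes that rose and 0.738% of those that fell, and in 0% and 0.498% of those of genes that rose and fell only after averaging. GAANNTTC was in 6.72% of all windows, in 6.19% and 5.17% of those of common genes that rose and fell, and in 4.32% and 3.98% of those resolved only by averaging. The E-box CACGTG was in 8.51% of all windows, in 7.96% and 9.59% of those of common genes that rose and fell, and in 7.19% and 8.46% of those resolved only by averaging. The set of common genes that rose had 113 windows. The FoxO site GTAAACA was in 3.12% of all windows, in 5.31% and 1.11% of those of common genes that rose and fell, and in 2.88% and 2.49% of those resolved only by averaging. The TEAD site GGAATG was in 13.3% of all windows, in 16.8% and 12.2% of those of common genes that rose and fell, and in 9.35% and 16.9% of those resolved only by averaging. The cAMP response element TGACGTCA was in 2.46% of all windows, in 0% and 4.43% of those of common genes that rose and fell, and in 0.719% and 3.48% of those resolved only by averaging. No motif overlaps another in its full letters, and these shares describe the letters in the windows.

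Of the 525 genes that only the averaged comparison resolved, 238 rose (0.941% of genes tested) and 287 fell (1.13%). The single-muscle p-values chose them, so their values are given as a description, and their sign was the same in both muscles for all 525. Their median size of change was 0.387 (range 0.241 to 1.26), and 7 of them changed at least 2-fold. The median change in size was 0.391 in soleus and 0.395 in gastrocnemius. The median SE of the averaged change was 0.0974, against 0.151 in each single muscle, much as for all genes (0.103 against 0.151). The median level of the 525 genes was 0.23, against 1.35 for the common response and -0.98 for all genes. The change was larger in soleus for 265 of them (50.5%), which is near the 55% of all genes.

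How far the 525 missed the threshold in 1 muscle varied. The lower of the 2 single-muscle adjusted p-values had a median of 0.09, and 310 of the genes had at least 1 under 0.1. In 48 genes both single-muscle adjusted p-values were at least 0.2, and in 12 both unadjusted p-values were at least 0.05. On single arrays the groups overlapped for most of them: HLS and Control arrays were separate in soleus for 43 genes, in gastrocnemius for 200 and in both for 9. Over all 25291 genes these numbers were 1283, 1878 and 586. After averaging, animal means were separate for 364 genes, 164 of the 238 that rose and 200 of the 287 that fell, beside 3.87% of all genes with separate means upward and 5.3% downward. The p-values that chose the genes shape all these counts, so nothing is read from them. Over all genes, those just inside the averaged threshold were Ibtk (change -0.37), one of the 525, and Cln6 (0.33) and Diaph1 (-0.51), which also passed in soleus. Just outside stood Ap3m1 (-0.41), Ccng2 (0.55) and Csf1 (-0.45).

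Expressed as the median deviation from the mean of all 10 animals, the 238 genes that rose stood at 0.14 to 0.21 in HLS animals, against -0.25 to -0.15 in Control animals. The 287 that fell stood at -0.32 to -0.12 in HLS animals, against 0.17 to 0.26 in Control animals, with HLS 5 the lowest. Passing the averaged test itself favours such a separation, so nothing is read from these medians. Single calls varied with the animals used, since 84 of the 525 kept their averaged call whichever animal was left out. Of the 47 genes of this set that the naming rule chose, 17 did so. For the largest rises and falls the rule also asked for separate animal means, so nothing is read from their separation below.

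Among genes that rose only after averaging and whose animal means did not overlap, Rilpl1, a Rab-binding protein of the RILP family, had the largest change. It stood at 3.83, 2.99, 3.26, 3.21 and 3.36 in HLS animals, against 2.91, 2.26, 2.50, 2.24 and 2.62 in Control animals. The animal means did not overlap, and the change was 0.83 ± 0.16 (1.77-fold, limma adjusted p = 0.0084), with 0.20 within slide 5 and 1.09 within slide 2. On slide 5 Rilpl1 was at 3.93 on soleus HLS 1, 2.69 and 2.99 on HLS 2 and HLS 3, and 3.00 on Control 5. In single muscles its change was 0.87 in soleus (adjusted p = 0.054) and 0.78 in gastrocnemius (adjusted p = 0.12). Sult1a1, a sulphotransferase of phenols, stood at 2.78, 2.18, 2.45, 2.52 and 2.88 in HLS animals, against 1.71, 1.39, 2.03, 1.95 and 2.10 in Control animals. It too was separate between groups, with a change of 0.72 ± 0.16 (limma adjusted p = 0.015), although the soleus change was -0.13 within slide 5, while the gastrocnemius change was 0.83 within slide 2.

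Cebpb, a transcription factor induced by glucocorticoids and cytokines, stood at 4.94, 4.85, 5.17, 5.21 and 5.93 in HLS animals, against 4.75, 4.25, 4.49, 4.57 and 4.69 in Control animals. HLS 2 was close to Control 1, and the change was 0.67 ± 0.18 (limma adjusted p = 0.041), which had an adjusted p of 0.096 without Control 2. It was 0.34 within slide 5 and 0.52 within slide 2. Per1, a core clock gene that glucocorticoids also induce, stood at 1.27, 1.30, 1.63, 1.94 and 2.28 in HLS animals, against 1.58, 0.13, 0.57, 0.49 and 0.50 in Control animals. Control 1 lay within the range of the HLS animals, and the change was 1.03 ± 0.26 (limma adjusted p = 0.03, and 0.073 without Control 2), with 0.43 within slide 5 and 0.78 within slide 2. Ets2, a transcription factor downstream of Ras and MAP kinases, stood at 2.55, 1.97, 1.95, 1.77 and 1.79 in HLS animals, against 1.48, 1.27, 1.60, 1.22 and 1.47 in Control animals. Its groups were separate with HLS 1 the highest, and the change was 0.60 ± 0.14 (adjusted p = 0.023, and 0.062 without Control 4).

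Map2k3, a kinase that activates p38, stood at 1.34, 1.14, 1.11, 1.58 and 1.33 in HLS animals, against 1.03, 0.64, 0.89, 0.76 and 0.66 in Control animals. HLS 3 was only just above Control 1, and the change was 0.50 ± 0.11 (limma adjusted p = 0.015), with 0.02 within slide 5 and 0.59 within slide 2. Dkk2, a secreted modulator of Wnt signalling, rose by 0.59 ± 0.13 (adjusted p = 0.015), and Tmem52 by 0.61 ± 0.12 (adjusted p = 0.0091, with 0.20 within slide 5 and 0.46 within slide 2). Both kept their calls whichever animal was left out. Tgfbr1, a receptor of the TGF-β and myostatin family, rose by 0.37 ± 0.09 (adjusted p = 0.029), and Usp19, a deubiquitinase, by 0.35 ± 0.09 (adjusted p = 0.035).

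Ucp3, a mitochondrial carrier of muscle that rises with fatty acid supply, stood at -0.01, -1.05, 0.09, 0.32 and -0.71 in HLS animals, against -1.50, -1.67, -0.83, -1.17 and -0.96 in Control animals. HLS 2 lay within the Control range, and the change was 0.95 ± 0.25 (limma adjusted p = 0.04, and 0.093 without Control 2), with 1.00 within slide 5 and 0.09 within slide 2. Cidea, a lipid droplet protein, stood at 1.71, 1.91, 2.51, 1.92 and 2.21 in HLS animals, against 1.49, 1.25, 1.52, 1.65 and 1.55 in Control animals. Its groups were separate, and the change was 0.56 ± 0.14 (adjusted p = 0.029, and 0.072 without HLS 5), while the other 11 adipocyte markers gave 0 calls in limma and 3 unadjusted p-values under 0.05. Cidea was at 1.97 on gastrocnemius HLS 3, against 0.80 to 1.30 on the other gastrocnemius HLS arrays. Without HLS 3 its change was 0.44 ± 0.11 (limma adjusted p = 0.043). The mitochondrial carrier Slc25a30 rose by 0.54 ± 0.15 (adjusted p = 0.044), Hmox1, haem oxygenase 1, by 0.44 ± 0.12 (adjusted p = 0.044), and Art1, a muscle ADP-ribosyltransferase, by 0.50 ± 0.12 (adjusted p = 0.021). Ivns1abp rose by 0.53 ± 0.12 and Grina by 0.51 ± 0.14, the change of Grina being 0.09 within slide 5 and 0.56 within slide 2. On slide 5 Grina was at 2.26 on soleus HLS 1, 1.24 and 1.35 on HLS 2 and HLS 3, and 1.53 on Control 5.

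Epithelial genes among the rises went with skin markers on single arrays. The 10 keratinocyte markers, such as Krt5, Krt14 and Lor, averaged 1.59 on the gastrocnemius HLS 3 array and 0.01 on the soleus HLS 2 array, and -1.67 to -1.28 on the other 18 arrays. Plet1, an epithelial surface protein, stood at -1.83, -1.19, -0.81, -1.56 and -1.47 in HLS animals, against -1.94, -2.08, -2.04, -2.07 and -1.98 in Control animals. Its highest arrays were gastrocnemius HLS 3 (0.45) and soleus HLS 2 (-0.93), the same as for the skin markers, and its change was 0.65 ± 0.15 (limma adjusted p = 0.023), and 0.51 ± 0.11 (adjusted p = 0.024) without HLS 3. Within slide 5 it was 0.42, and within slide 2 it was 0.28. Crybg2 also had its highest gastrocnemius and soleus values on these arrays (-1.24 and -2.00), with a change of 0.50 ± 0.12 (adjusted p = 0.03, and 0.065 without HLS 3), 0.70 within slide 5 and 1.03 within slide 2. Prss8, the epithelial protease prostasin, stood at -3.34, -3.33, -3.25, -3.29 and -3.14 in HLS animals, against -3.80, -3.69, -3.87, -3.89 and -3.55 in Control animals. These narrow bands are means of unlike arrays, since HLS 3 was at -1.96 in gastrocnemius and -4.54 in soleus. Its change was 0.49 ± 0.08 (adjusted p = 0.0036, and 0.011 without HLS 3), on 8 of 10 HLS and 7 of 10 Control arrays well above background. Of the 10 skin markers 9 had a positive change, with a median of 0.36 over the 10, but only Sfn passed, with a fall of -0.42 ± 0.10. The part of skin RNA in the rises of Plet1, Crybg2 and Prss8 was not tested. Bco1, a carotenoid oxygenase, rose by 0.66 ± 0.18 (adjusted p = 0.049) and was well above background on 7 of 10 HLS and 5 of 10 Control arrays, with 0.30 within slide 5 and 0.27 within slide 2.

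Genes that fell only after averaging were led by Cnn1, the calponin of smooth muscle. It stood at 0.23, 0.62, 0.84, 0.16 and -0.07 in HLS animals, against 0.88, 1.30, 1.77, 2.19 and 1.92 in Control animals. HLS 3 was just below Control 1, and the change was -1.26 ± 0.24 (2.39-fold lower, limma adjusted p = 0.0069), with -0.38 within slide 5 and -0.99 within slide 2. The 13 smooth muscle and pericyte markers gave 4 calls, all of them falls, and their mean level was 2.44 to 2.80 in HLS animals, against 2.69 to 3.10 in Control animals. Tagln, another smooth muscle protein, fell by 0.95 ± 0.13 (adjusted p = 0.0011), and Notch3, a receptor of vascular mural cells, by 0.43 ± 0.10 (adjusted p = 0.017). Cd248, endosialin of fibroblasts and pericytes, stood at 2.38, 2.81, 3.00, 3.04 and 2.37 in HLS animals, against 3.27, 3.50, 3.44, 3.72 and 3.49 in Control animals. Its groups were separate, and the change was -0.77 ± 0.14 (adjusted p = 0.0069), with -0.57 within slide 5 and -0.62 within slide 2. On slide 5 Cd248 was at 2.12 on soleus HLS 1, 3.18 and 3.64 on HLS 2 and HLS 3, and 3.54 on Control 5. The part of vascular and stromal cells in these falls was not tested.

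Myom3, a myomesin of the M-band, stood at 4.87, 5.24, 5.12, 5.39 and 5.27 in HLS animals, against 5.75, 5.70, 5.71, 5.85 and 5.60 in Control animals. The groups did not overlap, and the change was -0.55 ± 0.10 (limma adjusted p = 0.0052). Myom3 was at 5.19 on soleus HLS 1, against 5.76 to 6.37 on the other soleus HLS arrays. Hspb7, a small heat shock protein of muscle, stood at 2.98, 3.60, 3.28, 3.36 and 3.55 in HLS animals, against 4.33, 3.63, 4.79, 3.80 and 4.41 in Control animals. Control 2 lay just above the highest HLS animal, and the change was -0.84 ± 0.20 (adjusted p = 0.025, and 0.063 without Control 5), with -1.53 within slide 5 and -1.12 within slide 2. Ppargc1b, a coactivator of mitochondrial biogenesis, stood at 0.98, 1.15, 1.10, 1.28 and 0.36 in HLS animals, against 1.93, 1.22, 2.34, 1.54 and 2.15 in Control animals. HLS 4 and Control 2 overlapped, and the change was -0.86 ± 0.22 (adjusted p = 0.031, and 0.076 without Control 5).

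Nab1, a corepressor of EGR transcription factors, stood at -0.10, 0.16, 0.36, 0.44 and 0.11 in HLS animals, against 0.99, 0.76, 0.61, 0.81 and 1.06 in Control animals. The groups were separate, and the change of -0.65 ± 0.12 (limma adjusted p = 0.0054) was -0.49 within slide 5 and -0.68 within slide 2. Mcm3, a subunit of the replicative helicase, stood at -0.97, -0.25, -0.38, -0.20 and -0.60 in HLS animals, against -0.15, 0.20, 0.18, 0.54 and 0.07 in Control animals. HLS 4 was just below Control 1, and the change was -0.65 ± 0.16 (adjusted p = 0.026, and 0.065 without HLS 5). Dusp10, a phosphatase of stress-activated MAP kinases, fell by 0.75 ± 0.21 (adjusted p = 0.046), Emilin2, a glycoprotein of elastic matrix, by 0.71 ± 0.16 (adjusted p = 0.018), and Hs3st1, a heparan sulphate sulphotransferase, by 0.78 ± 0.17 (adjusted p = 0.013). Hs3st1 changed by -0.08 within slide 5 and -0.03 within slide 2. Dusp10 changed by -0.28 within slide 5 and -0.40 within slide 2. Afap1l2 fell by 0.92 ± 0.23, but its change was 0.55 within slide 5 and -0.61 within slide 2. The fit with a slide block put it at -0.03. Armcx2 fell by 0.66 ± 0.15, with -0.16 within slide 5 and -0.63 within slide 2, and the cytokine Il17d by 0.63 ± 0.16. Il17d was at 0.35 on soleus HLS 1, against 1.54 to 2.13 on the other soleus HLS arrays. Ces2b, a carboxylesterase, fell by 1.11 ± 0.31 (adjusted p = 0.048), with HLS 5 at -3.94 and the other HLS animals at -2.42 to -1.98, and its change was -0.51 within slide 5 and -0.17 within slide 2.

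For Dhh, Plekha4, Idi1, Mfsd2a and Pmp22, the 2 arrays of an animal often lay on opposite sides of their groups, and the animal means lay closer together than the arrays. Dhh, desert hedgehog, a ligand secreted by Schwann cells, was at 0.72, -0.39, -0.15, 0.11 and -0.25 on soleus HLS arrays, against 1.30, 2.05, 0.88, 1.95 and -0.28 on soleus Control arrays. In gastrocnemius it was at -0.38, 0.96, 1.45, -0.49 and 0.35 on HLS arrays, against 1.13, 1.20, 0.86, 0.81 and 2.00 on Control arrays. The groups overlapped in each muscle, and Control 5 was lowest of the Control arrays in soleus and highest in gastrocnemius. The animal means were 0.17, 0.28, 0.65, -0.19 and 0.05 in HLS animals, against 1.21, 1.62, 0.87, 1.38 and 0.86 in Control animals. They did not overlap, and the change was -1.00 ± 0.17 (limma adjusted p = 0.0044). It was 0.34 within slide 5 and -1.60 within slide 2, so its direction differed between these slides.

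The markers of Schwann cells and nerve stood high and low on several of the same arrays. The mean of 14 such markers, Mbp and Sox10 among them, was 0.51 on soleus HLS 1 and -0.15 on gastrocnemius HLS 1, and it was -0.67 on soleus Control 5 and 0.88 on gastrocnemius Control 5. Over animals it ranged from -0.17 to 0.32 in HLS, against 0.10 to 0.52 in Control. Of the 14 markers, 0 rose and 1 fell, and their median change was -0.27, against 0.04 for all genes. The marker that fell was Pmp22, a myelin protein, at 5.13, 4.95, 5.46, 4.69 and 4.66 in HLS animals, against 5.92, 5.92, 5.59, 5.85 and 5.37 in Control animals. HLS 3 overlapped with Control 5, and the change was -0.75 ± 0.16 (limma adjusted p = 0.014), 0.50 within slide 5 and -1.39 within slide 2. Plekha4 stood at 2.02, 1.87, 2.27, 1.84 and 1.83 in HLS animals, against 2.93, 2.78, 2.39, 2.76 and 2.52 in Control animals. Its animal means were separate, with a change of -0.71 ± 0.12 (adjusted p = 0.0034, the lowest of the 525), 0.29 within slide 5 and -1.33 within slide 2.

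Idi1, an enzyme of cholesterol synthesis, stood at -0.02, -0.19, 0.08, -0.23 and -0.27 in HLS animals, against 0.53, 0.68, 0.27, 0.38 and 0.31 in Control animals. It did not overlap between groups, and the change was -0.56 ± 0.10 (limma adjusted p = 0.0053), with -0.22 within slide 5 and -0.86 within slide 2. Mfsd2a, a transporter of lysophospholipids, fell by 0.64 ± 0.15 (adjusted p = 0.021, and 0.055 without Control 4), and was 0.50 within slide 5 and -1.42 within slide 2. Scd2, a fatty acid desaturase, fell by 0.63 ± 0.15 (adjusted p = 0.025), with 0.15 within slide 5 and -1.09 within slide 2. The part of nerve RNA in these falls was not tested.

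**Figure D3:**
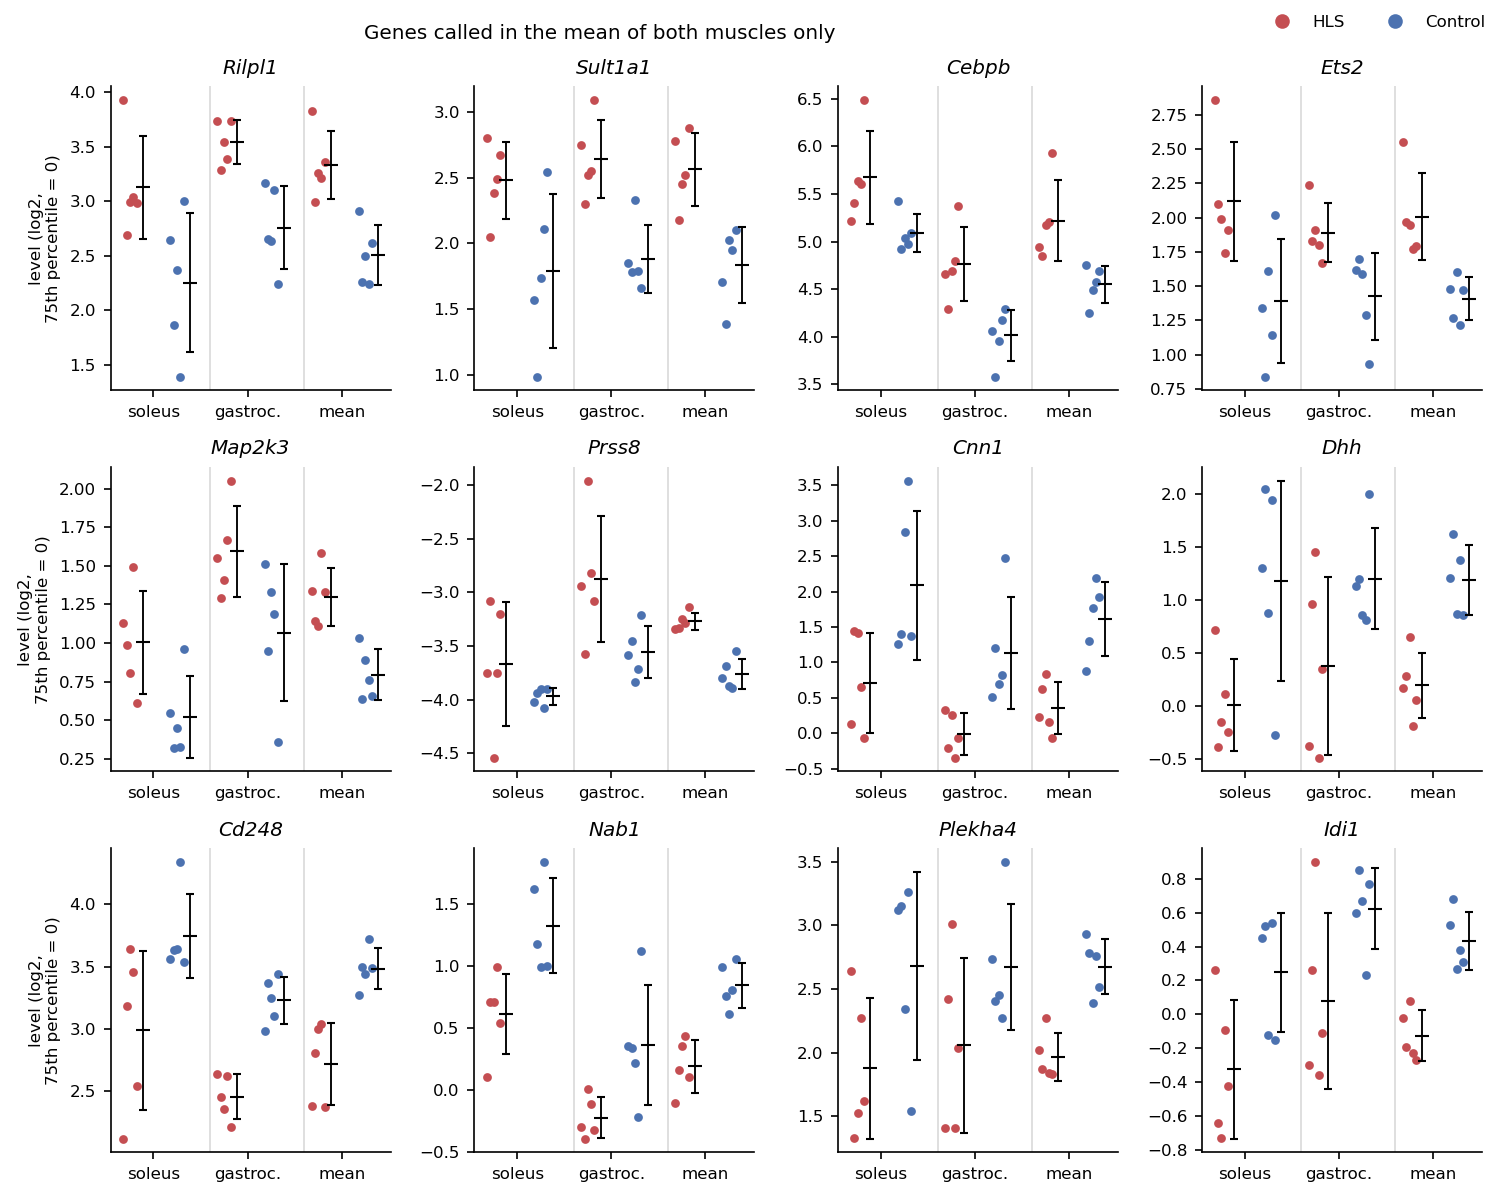
Each panel shows 1 gene that passed only after averaging, with levels (log2 relative to the array's 75th percentile) of the soleus arrays, the gastrocnemius arrays and the animal means, HLS in red on the left and Control in blue on the right of each pair. The groups overlap on single arrays for most of the 12 genes and separate in the animal means, and for Dhh the arrays of each group spread over more than the animal means do. The naming rule asked for separate animal means among the largest changes, so nothing is read from that separation.

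Gene lists were described by how many members rose or fell after averaging, beside 3.04% and 4.74% of all genes and a median change of 0.04 over all genes. They were chosen with earlier results of these data known and do not add independent evidence. Of 29 glucocorticoid targets 14 rose and 0 fell, with a median change of 0.64. Beside Ddit4, Fbxo32, Fkbp5, Cebpb and Per1 described above, Cdkn1a was among the 14, and Nfkbia, the inhibitor of NF-κB, rose by 0.62 ± 0.16 (limma adjusted p = 0.038), with 0.15 within slide 5 and 0.52 within slide 2. With slide as a block 2 of the 29 rose, and 5 did when scan day was the block, with medians of 0.43 and 0.65. Of 28 growth arrest and p53 genes 8 rose and 2 fell (median 0.17), led by Gadd45a and Eda2r among the rises and by Zmat3, an RNA-binding p53 target, among the falls (-0.68 ± 0.08). Of 28 FoxO pathway genes 6 rose and 1 fell (median 0.16), the fall being Trib1, a pseudokinase (-0.66 ± 0.13). Foxo1 itself changed by 0.49 (adjusted p = 0.28) and Foxo3 by 0.20 (adjusted p = 0.52), and neither passed.

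The proteolysis lists differed in their calls. Of 28 atrophy ubiquitin ligases 4 rose and 2 fell, with a median change of 0.03, and without HLS 1 the falls were 5. Fbxo32 and Fbxo31, an F-box protein (1.12 ± 0.18, limma adjusted p = 0.0023), were the highest, and Rnf115, a RING ligase, was the lowest (-1.25 ± 0.16, adjusted p = 7.7e-04), with -1.06 within slide 5 and -0.55 within slide 2. Of 34 proteasome subunits 0 rose and 0 fell at an adjusted p of 0.05 in limma (median 0.07), and 4 had an unadjusted p under 0.05. Of 38 autophagy and lysosome genes 6 rose and 0 fell (median 0.10), among them Sesn1, a sestrin (0.82 ± 0.13), and Map1lc3b, the autophagosome protein LC3B (0.76 ± 0.13, adjusted p = 0.0032). Among deubiquitinases Otud1 fell by 1.91 ± 0.25 (adjusted p = 8.3e-04).

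Growth signalling was mixed. Of 33 genes of mTORC1, insulin and IGF-1 signalling 8 rose and 4 fell (median 0.12), with the inhibitors Ddit4 and Ddit4l at the top and Irs1 and Pik3ca, the catalytic PI3-kinase subunit (-0.68 ± 0.08), at the bottom. Eif4ebp1, the translation repressor 4E-BP1, rose by 0.53 ± 0.14 (limma adjusted p = 0.042, and 0.096 without HLS 5), and Igf1 changed by -0.49 (adjusted p = 0.15). Of 31 genes of myostatin, activin and BMP signalling 2 rose and 4 fell (median -0.01). Inhba, an activin subunit, fell by 0.75 ± 0.16 and Smad7, an inhibitory Smad, by 0.66 ± 0.12, while Mstn, myostatin, changed by 0.64 (adjusted p = 0.31). The Mstn change was 0.29 without HLS 1, whose soleus array was at 1.21, against -2.85 to -1.02 on the other soleus HLS arrays. Of 44 translation factors 2 rose and 2 fell, with Eef2k, the kinase that inhibits elongation, up by 0.63 ± 0.08 (adjusted p = 8.6e-04) and the cap-binding Eif4e down by -0.63 ± 0.09 (adjusted p = 0.0012). Of 76 ribosomal proteins 0 rose and 0 fell in limma (median -0.03), and 3 had an unadjusted p under 0.05.

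Of 45 stretch-responsive genes 1 rose and 18 fell, with a median change of -0.40. The rise was Pdlim7, a PDZ and LIM protein (0.42 ± 0.09, limma adjusted p = 0.016). With slide as a block 10 of the 45 fell, and 13 did when scan day was the block, with medians of -0.22 and -0.33. Of 45 heat shock and chaperone genes 1 rose and 18 fell (median -0.33), and with slide as a block 5 fell. Hspa1a, the inducible Hsp70, stood at -0.50, -0.11, 0.55 and -0.16 in 4 HLS animals, against 2.02, 2.21, 2.30, 1.67 and 1.73 in Control animals. HLS 5 had no value because of an uneven spot, the groups did not overlap, and the change was -2.04 ± 0.20 (adjusted p = 1.8e-04). Hspa1a has a near-identical copy, Hspa1b, so the probe cannot be assigned to 1 of them. Dnajb4, a co-chaperone of Hsp70, fell by 1.52 ± 0.07 (adjusted p = 1.4e-06), and Dnajb6, another, rose by 0.37 ± 0.10 (adjusted p = 0.043). GAANNTTC was in the window of 5 of 15 chaperone genes that fell, of 1 of 1 that rose and of 5 of 22 that did not pass. The TEAD site was in 3 of 15 stretch-responsive genes that fell, in 0 of 1 that rose and in 8 of 21 that did not pass. The FoxO site was in 0 of 5 FoxO pathway genes that rose and in 3 of 18 that did not pass, and the E-box in 2 of 4 clock genes that rose and in 3 of 14 that did not pass. The C/EBP-ATF element was in 2 of 2 genes of the unfolded protein and ATF4 list that rose, in 1 of 10 that fell and in 3 of 21 that did not pass.

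Of 36 genes of the unfolded protein response and ATF4 pathway 2 rose and 11 fell (median -0.11). Those that rose were Chac1 and Herpud1, a protein of endoplasmic reticulum degradation (0.48 ± 0.13, with 0.15 within slide 5 and 0.46 within slide 2), and the falls included Hspa5, the lumenal chaperone BiP (-0.85 ± 0.11, limma adjusted p = 6.6e-04). Of 56 extracellular matrix genes 0 rose and 21 fell, with a median of -0.34. The falls were 16 without HLS 1 and 2 with slide as a block. The lowest were Timp1 and Serpinh1, the collagen chaperone (-1.10 ± 0.13, adjusted p = 3.7e-04). Beside them, 14 fibroblast markers gave 0 rises and 3 falls, with mean levels of 2.94 to 3.28 in HLS animals, against 3.13 to 3.54 in Control animals. The 11 tendon markers gave 1 fall, of Scx, a tendon transcription factor (-0.76 ± 0.13), at mean levels of 1.25 to 1.91 in HLS, against 1.80 to 1.85 in Control. The part of connective tissue cells in the matrix falls was not tested.

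Of 38 angiogenesis and hypoxia genes 1 rose and 6 fell (median -0.07). Kdr, the VEGF receptor of endothelium, fell by 1.00 ± 0.23 (limma adjusted p = 0.022, and 0.057 without Control 2, with -0.39 within slide 5 and -0.54 within slide 2), and Adm, adrenomedullin, rose by 0.53 ± 0.11 (adjusted p = 0.012). Of 14 endothelial markers 3 fell, with a median change of -0.02, and the transcription factor Ets1 was the one with the lowest adjusted p (-0.69 ± 0.08, 4.4e-04). Of 30 cell cycle and replication genes 1 rose and 8 fell (median -0.13). The rise was Ccne1, cyclin E1 (0.39 ± 0.10, adjusted p = 0.035), and Ccnd1 and Ccnd2 were the lowest. Of 36 inflammation genes 1 rose and 8 fell, with a median change of 0.02. Cxcl12, a chemokine, fell by 1.01 ± 0.10 (adjusted p = 1.1e-04) and Socs1, an inhibitor of cytokine signalling, by 0.69 ± 0.18 (adjusted p = 0.04), although Socs1 was 0.31 within slide 5 and -0.66 within slide 2. Without HLS 1 the falls in this list were 5, and 14 macrophage markers gave 0 calls in limma and 3 unadjusted p-values under 0.05.

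Metabolic lists moved in both directions. Of 46 fatty acid genes 9 rose and 3 fell (median 0.14). Dgat2, an enzyme of triglyceride synthesis, rose by 0.87 ± 0.23 (limma adjusted p = 0.036), with 0.19 within slide 5 and 0.02 within slide 2, whereas Ppara, a lipid-sensing receptor, fell by 1.25 ± 0.18 (adjusted p = 0.0012). Of 28 mitochondrial regulators 1 rose and 7 fell (median -0.12), with Ucp3 as the rise and Perm1 and Ppargc1b as the lowest. Ppargc1a, the coactivator PGC-1α, fell by 0.80 ± 0.11 (adjusted p = 0.0012), with -1.56 within slide 5 and -0.85 within slide 2. Among 60 subunits of oxidative phosphorylation 0 rose and 1 fell, Ndufb5 (-0.33 ± 0.08), and without HLS 1 0 passed in limma, where 11 had an unadjusted p under 0.05. Of 36 glycolysis and glycogen genes 1 rose, Pfkfb3, and 4 fell. Of 23 clock genes 5 rose and 0 fell (median 0.16), with Per1 the highest, and with slide as a block 0 passed in limma, where 4 had an unadjusted p under 0.05.

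Of 22 slow fibre genes 0 rose and 7 fell (median -0.25), and without HLS 1 the 22 again gave 7 falls with a median of -0.12. Csrp3 and Ankrd2, the lowest, also stand in the stretch-responsive list. Of 24 fast fibre genes 2 rose and 0 fell, among them Gpd1, a glycerol phosphate dehydrogenase (0.65 ± 0.14, limma adjusted p = 0.017). Gpd1 was at 6.80 on soleus HLS 1, against 5.18 to 5.81 on the other soleus HLS arrays and 6.63 to 6.98 on gastrocnemius HLS arrays. Without HLS 1 the 24 again gave 2 rises and 0 falls, with a median of -0.06, against 0.06 with it. Of 40 calcium handling genes 1 rose and 3 fell, the falls being 6 without HLS 1, and Casq2, the calsequestrin of slow fibres and heart, fell by 1.17 ± 0.20 (adjusted p = 0.0044). Casq2 was at 0.23 on soleus HLS 1, against 0.98 to 2.42 on the other soleus HLS arrays and -0.51 to -0.20 on gastrocnemius HLS arrays. Of 35 denervation and neuromuscular junction genes 5 rose and 3 fell, with Hdac4 and Gadd45a the highest and Nes, nestin (-0.91 ± 0.10), and Dok7, a junction adaptor (-0.85 ± 0.11), the lowest. Myog, myogenin, changed by 0.62 (adjusted p = 0.068), and the metallothioneins Mt1 and Mt2 by 0.69 and 0.99 (adjusted p = 0.17 for both).

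With slide as a block fewer genes of the lists passed. The denervation list then had 3 rises and 2 falls, the growth arrest and p53 list 4 and 0, the FoxO list 3 and 0, the slow fibre and mitochondrial regulator lists 0 and 3 each. The ubiquitin ligase, autophagy, mTORC1 and glycolysis lists had 1 rise each and 0 falls, and the cell cycle, fatty acid and calcium handling lists 1 fall each and 0 rises. In limma 0 genes passed with slide as a block in the unfolded protein and ATF4 list, where 9 had an unadjusted p under 0.05, in the angiogenesis list, where 7 did, in the inflammation list (5), the myostatin list (6), the translation factor list (4) and the fast fibre list (1). The same held for the smooth muscle and pericyte markers (4), the endothelial markers (4), the fibroblast markers (3) and the tendon markers (4). When scan day was the block, the unfolded protein and ATF4 list had 1 rise and 7 falls, the angiogenesis list 0 and 5, the inflammation list 0 and 2, the mTORC1 list 3 and 2, and the fatty acid list 6 and 1.

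**Figure D4:**
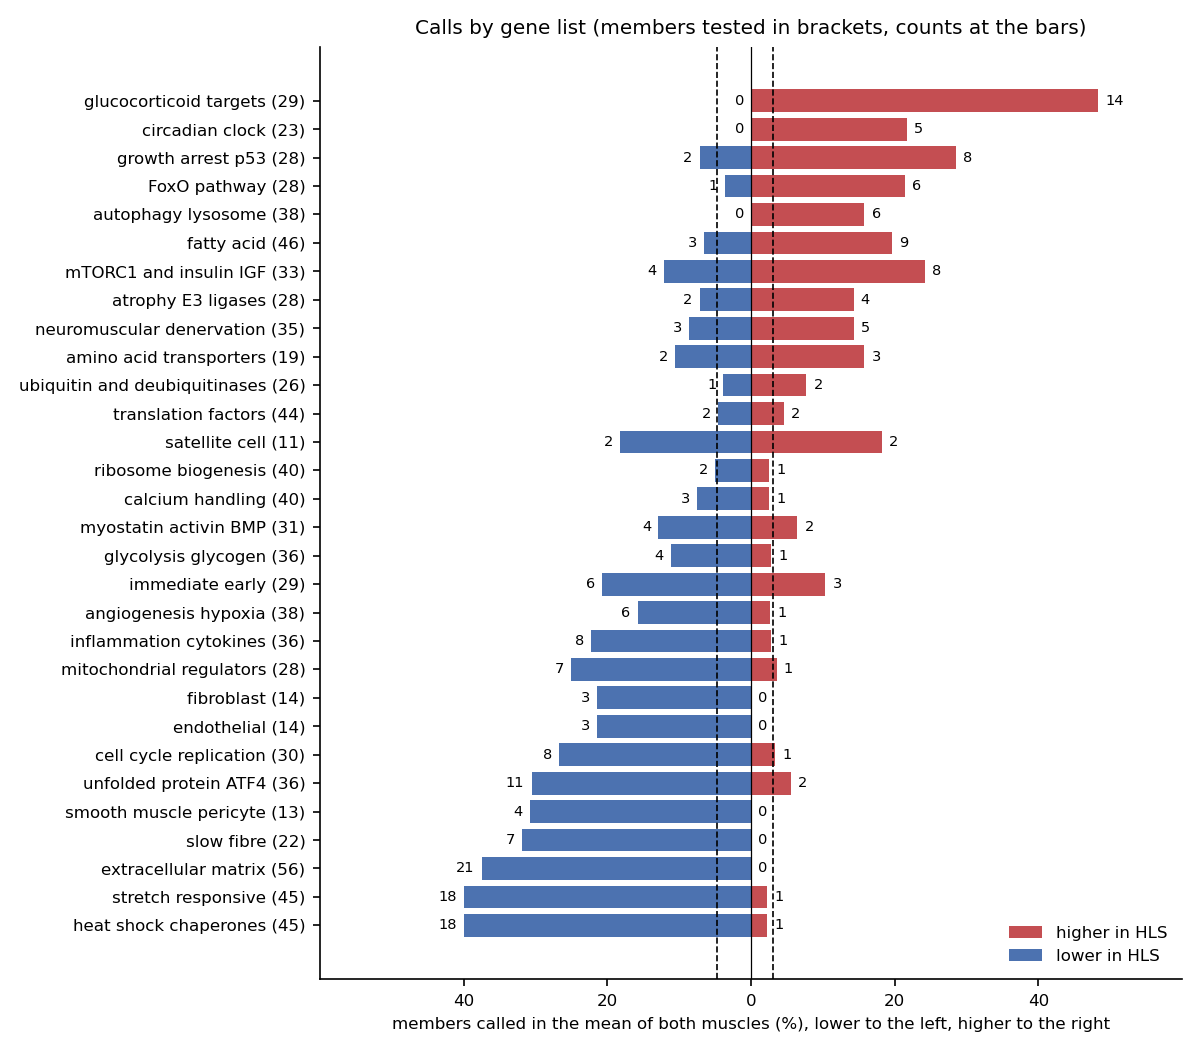
For each gene list with at least 3 calls, bars give the percent of its tested genes that rose or fell in the averaged comparison (x axis), and dashed lines mark the shares of all genes, 3.04% and 4.74%. Glucocorticoid targets have the longest bar of rises, 14 of 29, and stretch-responsive and heat shock genes the longest bars of falls, 18 of 45 in each.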

How the data were processed

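RNA of 20 muscles was labelled with Cy3, 600 ng each with spike-in RNA, per the labels. The authors deposited linear spot intensity values, which Agilent Feature Extraction 9.1.3.1 had corrected for background and spatial trends without scaling between arrays, per the file headers. The deposited values of the series held the same values within 0.5%. Marked uneven spots and control spots were left out, each array was divided by its 75th percentile of 43379 spots, log2 was taken, and replicate spots of a probe were averaged. Probes entered if 4 or more of the 5 arrays of any group had them well above background with at most 2 arrays missing, and the brightest probe stood for a gene, which left 25291 genes. Of 41174 probes, 22944 got a RefSeq name by accession, 6664 by symbol and 3108 by an older symbol, and 8458 carry the array's own name, which can be old.

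In R 4.3.3 with the package data.table (version 1.17.8), limma 3.58.1 was run on the animal means of both muscles (8 residual degrees of freedom), and single muscles in a model of 4 groups over 20 arrays (16 degrees of freedom). All tests are 2-sided with Benjamini-Hochberg adjustment at 0.05, and the scripts were tested on simulated data. Figures were drawn with matplotlib 3.10.9. Genes were named by a rule. It took the 10 highest and 10 lowest averaged changes and the 12 largest common rises and falls, with no overlap of animal means for the averaged ones. Of genes that passed only after averaging it took the 15 largest each way, again with no overlap of animal means, and the 6 with the lowest p. It added up to 2 members at each end of a list, 14 genes whatever their values, and 3 genes on each side of the threshold. Krt5, Krt14, Lor, Mbp, Sox10 and the fibre genes were named as markers after their values were seen. Some genes that the rule chose are not reported here. The members and lists were chosen with earlier results of these data known. Promoter windows came from RefSeq tables on GRCm38.p6.

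HLS and Control animals with the same number are different mice, and their deviations correlated at -0.0216 to 0.161, so the numbers do not pair them. The alternatives were normexp background, quantile normalization, the authors' series table as input, spike-in scaling, other probe filters, other models, slide and scan day as blocks, and leaving out each animal.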

Additional observations from a re-analysis of the deposited data

Results flagged for a closer look

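In groups of 5 animals, chance alone sets about 1 group in 20 apart by the measure used here, the gap of the highest or lowest animal to its nearest neighbour against the range of the group. The groups of many named genes were looked at, so many of the animals below can stand apart by chance alone. Among the named genes, HLS 1 stood apart for Cdh15 (1.61, the others 1.22 to 1.28), Diaph1 (2.44, the others 1.66 to 1.82), Ets2 (2.55, the others 1.77 to 1.97) and Grina (2.23, the others 1.63 to 1.73). HLS 5 stood apart for Foxo1 (3.00, the others 1.46 to 1.82), Ces2b (-3.94, the others -2.42 to -1.98) and Ap3m1 (-0.31, the others 0.16 to 0.28). Gadd45g was low in HLS 2 (4.60, the others 5.64 to 6.06), Ankrd2 was high in HLS 3 (3.68, the others 3.11 to 3.26), and Srm, spermidine synthase, was high in HLS 4 (0.63, the others 0.41 to 0.46).

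Of the Control animals, Control 2 was low for Ddit4 (1.73, the others 3.04 to 3.49), Gadd45g (3.36, the others 4.04 to 4.22), Ccng2 (0.87, the others 1.64 to 1.79) and Cdh15 (0.76, the others 0.98 to 1.05). Control 3 was high for Ap3m1 (0.75, the others 0.41 to 0.49) and Diaph1 (2.72, the others 2.30 to 2.34) and low for Dok7 (2.88, the others 3.07 to 3.12). Control 4 was high for Adgre1, a macrophage receptor (0.84, the others 0.19 to 0.30), Hs3st1 (-1.23, the others -2.06 to -1.89), Rpl9 (5.76, the others 5.56 to 5.61), Sfn (1.62, the others 1.25 to 1.35) and Zmat3 (-0.00, the others -0.18 to -0.15).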

How the results depend on the processing

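The averaged comparison called 770 genes up and 1198 down. With slide as a fixed block it called 37 up and 104 down, with scan day as a fixed block 332 and 454, and with slide as a random block 1217 up. The replicate block, which treats equal numbers as pairs although the mice differ, called 596 up and 976 down, and samples matched best with their own number in 2 of 5 cases. Leaving out 1 animal gave 491 to 729 up and 856 to 1126 down, with the lowest number of rises without Control 4. Of genes resolved only by averaging (238 up and 287 down), leaving out 1 animal gave 95 to 233 up and 171 to 334 down, with 95 and 171 without Control 5, and 125 and 143 up without Control 4 and HLS 5. The replicate block gave 188 down. A 20-array model without an animal term gave 458 up and 595 down, the animal as a random block 463 and 603, scan day as a random block 459 and 597, slide as a random block 485 and 584, slide as a fixed block 26 and 90, and scan day as a fixed block 119 up and 119 down. Single muscles fitted on their own 10 arrays gave 372 up. Asking for an unadjusted p of 0.05 or above in both single muscles, with the averaged call unchanged, gave 4 up and 8 down. Common genes (158 up and 359 down) were 1 and 1 with slide as a fixed block, and 5 and 4 with scan day. Leaving out 1 animal gave 87 to 139 up and 234 to 316 down, with 87, 90, 91 and 101 up without Control 2, Control 3, HLS 3 and HLS 5, and 234 down without Control 3. For the difference between muscles (0 genes), normexp background gave 6, quantile normalization 1, the filter on all arrays 4, and leaving out 1 animal 0 to 1. Spike-in scaling moved the median change to 0.30. With normexp the angiogenesis list had 10 falls and the denervation list 8 rises, and without HLS 1 the inflammation list had 5 falls. Signs turned with slide as a fixed block for Ciita (-0.07), Foxo1 (-0.05), Mt1 (-0.04) and Mt2 (-0.01), none of which passed, and for Sfn (0.11) when all kept probes of a gene were averaged. Apart from fewer animals in the leave-one-out fits and fewer degrees of freedom with blocks, the cause was not tested. Signal near background limits Tnfrsf11b, Bco1, Prss8, Slc10a6 and Ces2b.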

Other observations

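Smaller lists are given here for the averaged comparison, beside rises of 3.04% and falls of 4.74% over all genes. Of 17 polyamine and methyl donor genes 0 rose and 2 fell, Azin1, the antizyme inhibitor (-1.10 ± 0.12, limma adjusted p = 2.7e-04), and Srm (-0.33 ± 0.09). Of 19 amino acid transporters 3 rose and 2 fell, with Slc43a1 the highest and the creatine transporter Slc6a8 the lowest (-0.66 ± 0.11, adjusted p = 0.0028). Of 40 ribosome biogenesis genes 1 rose, Wdr43 (0.33 ± 0.08), and 2 fell, Nop58 (-0.33 ± 0.08) and Nop2 (-0.27 ± 0.07). Of 20 tRNA synthetases 0 passed in limma and 3 had an unadjusted p under 0.05, the lowest being 0.024 for Aars. Of 29 immediate early genes 3 rose and 6 fell, with Klf10 highest, Atf3 lowest and Nr4a1, an orphan nuclear receptor, at -0.94 ± 0.25. Of 28 metallothionein and oxidative stress genes 1 rose, Hmox1, and 1 fell, Nfe2l1, a regulator of proteasome genes (-0.62 ± 0.07). Of 26 ubiquitin pathway genes 2 rose, Usp19 and Ube2g1 (0.40 ± 0.10), and 1 fell, Otud1.

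Cell type markers outside the lists above differed in their calls. Of 11 satellite cell markers 2 rose, Chrdl2 (0.55 ± 0.11) and Cdh15 (0.35 ± 0.09), and 2 fell, Vcam1 (-0.52 ± 0.12) and Notch3. Of 12 neutrophil, mast cell and lymphocyte markers 1 fell, the mast cell protease Mcpt4 (-0.81 ± 0.22). The 8 markers of antigen presentation and the 8 erythrocyte markers gave 0 calls in limma, and 0 and 1 of them had an unadjusted p under 0.05.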
